A study of Mus musculus with 4 samples.

Results

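The comparison is between kidney Gli1+ cells given TGF-β for 12 h and for 6 h, measured by Drop-seq in single cells and restricted to cell barcodes with 1000 or more counts. This rule kept 80 of 658 barcodes of the 6 h library and 865 of 1120 of the 12 h library, 945 of the 3298 barcodes in the series. Both cultures came from male mice aged 12 weeks, spent 2 h without serum and then received TGF-β at 1 ng/ml. No group lacked TGF-β at 6 or 12 h, so hours with TGF-β and hours since serum removal cannot be told apart. The library labelled 0 h, with 13 such barcodes, was not used, and the 24 h library is given beside some values only as a further level. The series title speaks of a conditionally immortalized Gli1-positive line and its design text of primary culture, and which of these each library holds was not settled here. Each time had 1 library, so no difference has a replicate check and no test was made. Intervals in parentheses are exact 95% intervals and cover counting error only, not differences between cultures or uneven expression among cells.

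Gli1+ cells are mesenchymal cells around kidney vessels and tubules that can become myofibroblasts, the contractile cells that lay down scar matrix in fibrosis. TGF-β binds a receptor kinase pair on these cells, which phosphorylates SMAD2 and SMAD3, and these enter the nucleus and switch on genes for collagen, fibronectin, crosslinking enzymes and smooth muscle actin. The cytokine also slows the division of many cell types.

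The deep barcodes held 577352 counts at 6 h and 5564682 at 12 h, which was 74.1% and 97.8% of the counts of their libraries. Depth was uneven at 6 h. The 10 deepest barcodes held 40.2% of the counts used at 6 h and 4.11% at 12 h, and the median depth was 3476.5 and 5231 counts per barcode. A single count was worth 1.73 CPM (counts scaled to a total of 1000000 per library) at 6 h and 0.180 CPM at 12 h, and a gene without a count could be present at up to 5.20 CPM and 0.539 CPM. No barcode occurred in both libraries. Below, a pair of levels joined by "against" is the 6 h library and then the 12 h library. Mesenchymal markers together stood at 5018 CPM (4837 to 5204) against 7503 CPM (7432 to 7576), with 8 of their 10 genes in the table and Gli1 not analysed here. This sum came mostly from Vim, at 3481 against 4115 CPM. It also includes Col1a1, Col1a2 and Col3a1, which are results below, so its difference is not separate from theirs. Markers of proximal tubule summed to 3.46 and 1.98 CPM, of other tubule segments to 1.73 and 1.08 CPM, of podocytes to 1.73 and 2.16 CPM, of endothelium to 1.73 and 7.91 CPM, of macrophages to 8.66 and 4.13 CPM, of lymphocytes to 0 and 0.180 CPM, of adipocytes to 27.7 and 11.1 CPM and of epithelium to 6.93 and 2.52 CPM. The single erythroid marker in the table had no count. Schwann and neural markers summed to 107 and 231 CPM, mostly from Ncam1, and striated muscle markers to 682 and 959 CPM, mostly from Tnnt2 at 655 against 952 CPM, while Myh3, Myh7, Actc1 and Ckm had no count. Smooth muscle markers summed to 93.5 and 109 CPM. No second cell type was there in which a background share from free RNA could be read.

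Matrix genes and genes of growth arrest were higher at 12 h, and genes of cell division were lower. Among the 2271 genes that reached 100 CPM at one of the times, 111 had at least 2-fold more summed CPM at 12 h (4.89%) and 93 at least 2-fold less (4.1%), together 8.98%. The higher side held 54.4% of the calls in plain CPM, 39.6% after TMM scaling and 38.8% after scaling by DESeq2 size factors, which put 78 genes higher and 119 or 123 lower. A call is named stable below if it was also 2-fold the same way in the mean CPM over equally weighted barcodes, without the 10 deepest 6 h barcodes and without each gene's own highest barcode in each library, and if its share of barcodes with a count went the same way after every barcode was thinned to 1000 counts. There were 79 stable higher genes (3.48% of those tested) and 76 stable lower genes (3.35%). Of the calls that were not stable, equal weight gave under 2-fold for 18 higher and 11 lower genes and leaving out the 10 deepest barcodes for 20 and 9. No call changed direction by equal weight. When barcodes were weighted equally, 194 genes were higher and 114 lower. The 91 higher genes called both ways were 82.0% of the summed calls and 46.9% of the equally weighted ones, and the 76 lower genes were 81.7% and 66.7%. With all deposited barcodes in place of the deep ones, 96 of the 111 higher and 85 of the 93 lower genes were called again, among 135 and 110.

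**Figure D1:**
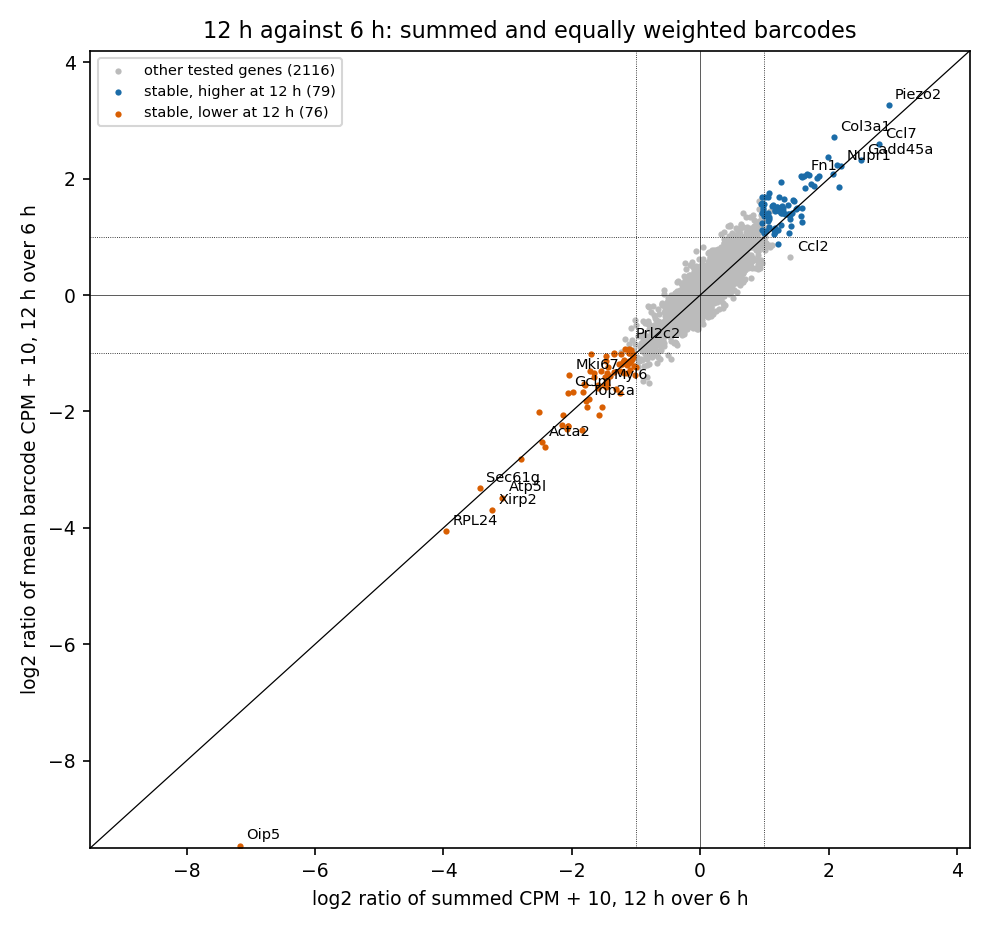
Each point is 1 of 2271 tested genes, with the log2 ratio of summed CPM plus 10 (12 h over 6 h) on the x axis and the same for the mean CPM over equally weighted barcodes on the y axis. Blue points are the 79 stable higher genes and orange points the 76 stable lower genes. Most lie near the diagonal, while Ccl2 falls under it and Col3a1 above it.

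The 6 h barcodes of low depth differed in make-up from those of 12 h. Between 1000 and 5000 counts there were 47 barcodes at 6 h and 415 at 12 h, between 5000 and 10000 there were 11 and 281, and from 10000 up 22 and 169. In the shallowest of these tiers the median barcode at 6 h had 0.193% of its counts from protein-coding mitochondrial genes, against 0.747% at 12 h. Malat1, a long RNA kept in the nucleus, took a median of 0.0911% there at 6 h against 0.843% at 12 h, and the ribosomal protein genes 15.6% against 10.7%. In the deepest tier the medians were 0.614% and 0.756% for protein-coding mitochondrial genes, 0.727% and 0.674% for Malat1, and 14.0% and 11.2% for ribosomal protein genes. The mitochondrial ribosomal RNA mt-Rnr2 went the other way. Its medians were 2.23% at 6 h and 1.45% at 12 h in the shallowest tier, and 2.76% and 1.19% in the deepest. Thus Malat1 differed between the libraries in the shallowest tier and was close in the deepest, while ribosomal protein genes took more at 6 h in both. After thinning to 1000 counts, Malat1 was counted in 68.8% (57.4 to 78.7) of 6 h barcodes and 95.8% (94.3 to 97.1) of 12 h barcodes, although its summed level was 10927 against 10950 CPM. The part of this make-up in the results below was not tested, and the medians of the main gene lists are therefore also given for the deepest tier.

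**Figure D2:**
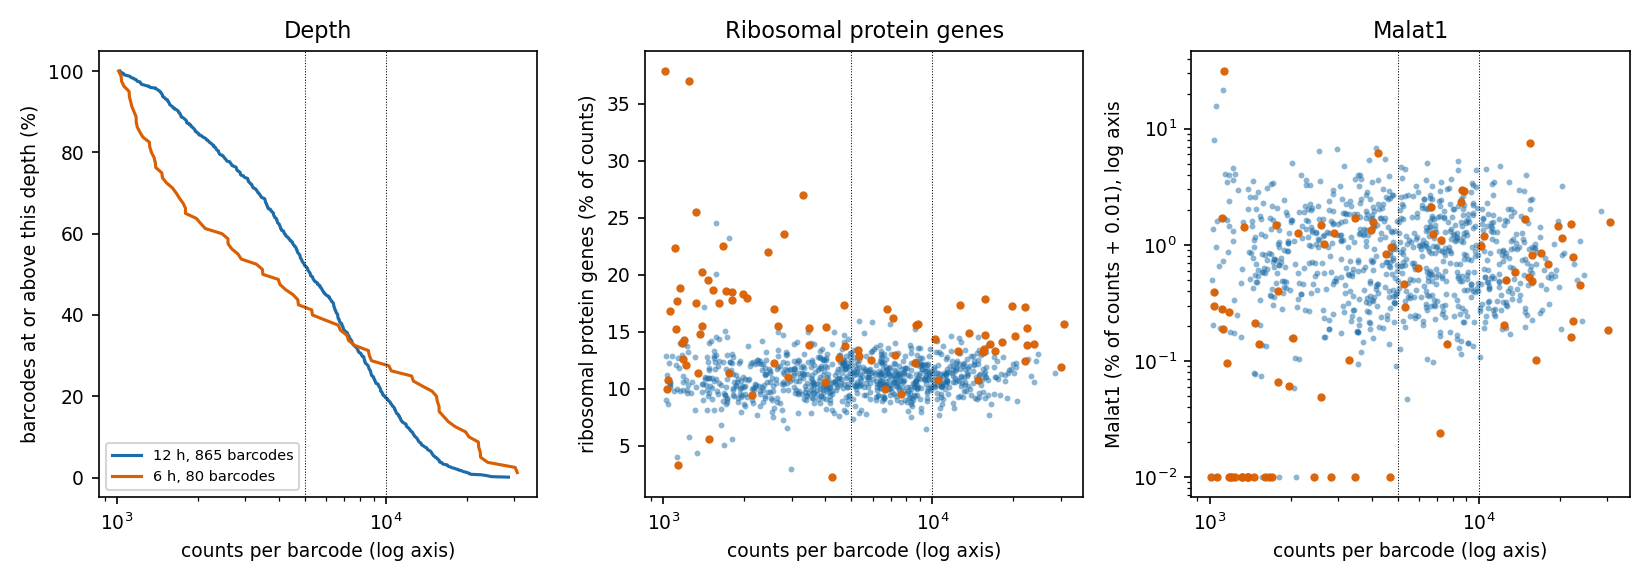
The left panel shows the share of barcodes (%) at or above each depth (counts per barcode, log axis), the middle panel the share of counts from ribosomal protein genes in each barcode, and the right panel that of Malat1 (log axis, plus 0.01). Orange is 6 h (80 barcodes) and blue 12 h (865 barcodes), with dotted lines at 5000 and 10000 counts. Orange points at the bottom of the right panel are 6 h barcodes without a Malat1 count, all under 5000 counts.

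Fibrillar collagens, which form the tensile fibres of connective tissue, were higher at 12 h. Of 10 listed members 6 were measured, meaning a mean of at least 20 CPM over both libraries, and 5 of these were at least 1.5-fold higher and 0 lower, where 21.1% of all 6392 measured genes were higher and 10.1% lower by that limit. Counts of higher and lower list members below use the same 1.5-fold limit. Their median log2 ratio was 1.07, against 0.12 for all measured genes, and 1.03 in the deepest tier. Col3a1, which makes the type III collagen of reticular fibres, was at 32.9 CPM (19.8 to 51.4) against 172 CPM (161 to 183), 5.23-fold (3.33 to 8.73) higher. Equal weight gave 9.35-fold for Col3a1, and the 3 depth tiers, from shallow to deep, gave 10.3-, 6.03- and 4.48-fold. Its 19 counts at 6 h were the limit of that estimate. Col1a2, the second chain of type I collagen, was at 1229.8 CPM (1141 to 1324) against 2677 CPM (2635 to 2721), 2.18-fold (2.02 to 2.35) higher. The partner chain Col1a1 was at 223 against 463 CPM, 2.07-fold (1.73 to 2.49) higher, but 1.88-fold without the 10 deepest 6 h barcodes, so its call was not stable. Col5a1, which starts fibril assembly, was 2.49-fold (1.72 to 3.75) higher. Col5a2 went from 414 to 661 CPM and Col11a1 from 135 to 126 CPM, both less than 2-fold apart.

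The collagen difference was also one of how many barcodes held a count. Col1a2 was counted in 52.5% (41 to 63.8) of 6 h barcodes and 92% (90.0 to 93.7) of 12 h barcodes after thinning, and Col3a1 in 1.25% (0.0316 to 6.77) of 6 h barcodes and 14.8% (12.5 to 17.3) of 12 h barcodes. Barcodes without a count from any fibrillar collagen made up 35.0% (24.7 to 46.5) at 6 h and 2.89% (1.88 to 4.24) at 12 h. In the shallowest tier these shares were 51.1% (36.1 to 65.9) and 3.61% (2.04 to 5.89), and in the deepest tier 13.6% (2.91 to 34.9), from 3 of 22 barcodes, and 2.37% (0.649 to 5.95). The collagen-free share at 6 h was thus highest in the shallowest tier, which also had a low median of Malat1. Whether the same barcodes lacked both was not examined, and the part of the collagen-free share in the collagen ratio was not tested. At 24 h Col1a2 was at 3296 CPM and Col3a1 at 429.9 CPM. Other collagens, of microfibrils, basement membranes and anchoring fibrils, had a median of 0.64 with 5 of 7 at least 1.5-fold higher and 0 lower, none of them a stable call. Col8a1 was at 34.6 against 75.5 CPM, and Col4a1 at 116 against 141 CPM.

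Matrix glycoproteins and proteoglycans were higher as a group. Of 31 listed members 16 were measured, and 12 were at least 1.5-fold higher and 2 lower, with a median log2 ratio of 0.94, and of 1.02 in the deepest tier. Fn1, fibronectin, on which cells assemble other matrix proteins, was at 927 CPM (849.8 to 1009) against 2867 CPM (2823 to 2912), 3.09-fold (2.84 to 3.38) higher. It was counted in 38.8% (28.1 to 50.3) of 6 h barcodes and 93.2% (91.3 to 94.8) of 12 h barcodes, and in 59.1% and 92.9% of the barcodes in the deepest tier. The intervals of the Fn1 shares did not overlap over all deep barcodes. Ltbp2 and Ltbp3 encode latent TGF-β binding proteins, of which Ltbp3 holds the inactive cytokine in the matrix. Ltbp3 was at 38.1 against 182 CPM, 4.77-fold (3.13 to 7.65) higher. Ltbp2 was at 19.1 against 120.0 CPM, 6.3-fold (3.5 to 12.7) higher, from 11 counts at 6 h of which 27.3% lay in 1 barcode. Emilin1, an elastic fibre protein, was at 17.3 against 82.1 CPM, Thbs1, thrombospondin, which can activate latent TGF-β, at 317 against 787 CPM, and Fbn1, the main microfibril protein, at 91.8 against 189 CPM. Ecm1 was 2.76-fold (2.17 to 3.55) higher, at 121 against 334 CPM, and stood at 142 CPM at 24 h. Tnc, tenascin C, and Mfap5, a microfibril protein, were the 2 lower members, at 57.2 against 26.2 CPM and at 32.9 against 14.2 CPM. The thinned counts of this list had a median of 5 per barcode at 6 h and 12 at 12 h.

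Genes that process and crosslink collagen were higher too, 13 of 20 measured by at least 1.5-fold and 0 lower, with a median of 0.73. Bmp1, the protease that removes the C-terminal propeptide of procollagen, was at 50.2 CPM (33.6 to 72.1) against 208 CPM (196 to 219.9), 4.13-fold (2.86 to 6.2) higher, and was counted in 3.75% (0.78 to 10.6) of 6 h barcodes and 19.1% (16.5 to 21.9) of 12 h barcodes. Pcolce, which enhances that protease, was 2.54-fold (1.69 to 3.99) higher, and Pcolce2 was at 8.66 against 42.2 CPM. The lysyl oxidase family members Loxl1 and Loxl2, which crosslink elastin and collagen, were 2.77-fold (1.83 to 4.4) higher and 2.35-fold (1.98 to 2.8) higher. Lox itself was at 239 against 341 CPM. Plod2, a lysyl hydroxylase, was at 125 against 255 CPM, and Fkbp10, a collagen chaperone, at 65.8 against 145 CPM, both stable calls. Crtap, of the prolyl 3-hydroxylase complex, went the other way, at 95.3 against 72.8 CPM. In the deepest tier the list's median was 0.90.

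Proteases and their inhibitors were mixed in summed CPM, with 5 of 14 higher and 3 lower. By equal weight 8 were higher and 1 lower, where 30.7% of all measured genes were higher and 11.1% lower. Timp3, a metalloprotease inhibitor bound to matrix, had the highest level of the matrix genes named here, at 2091 CPM (1974 to 2212) against 5921 CPM (5857 to 5985), 2.83-fold (2.67 to 3) higher. Leaving out the 10 deepest 6 h barcodes gave 2.38-fold for Timp3, and it was counted in 58.8% (47.2 to 69.6) of 6 h barcodes and 95% (93.4 to 96.4) of 12 h barcodes. Mmp14, a membrane collagenase, was at 272 against 481 CPM, and Mmp2, which it activates, at 149 against 237 CPM. Plaur, the urokinase receptor, and Adam9, a membrane protease, were lower, at 38.1 against 15.1 CPM and 263 against 137 CPM. Prss23, a secreted serine protease named by the rule for the largest ratios, was at 88.3 against 403 CPM, 4.57-fold (3.46 to 6.15) higher, and reached 760.5 CPM at 24 h.

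**Figure D3:**
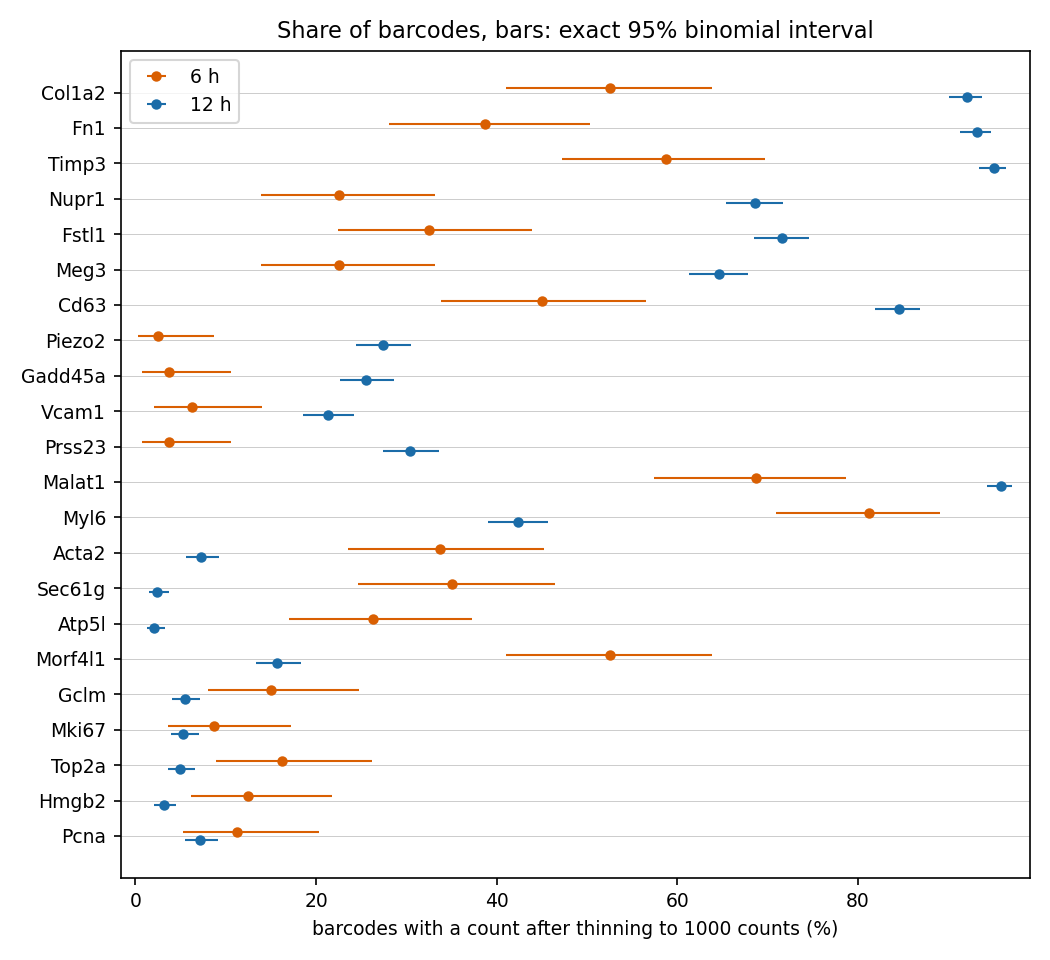
Points show the share of barcodes (%) with a count of each gene after each barcode was thinned to 1000 counts, in orange for 6 h (80 barcodes) and blue for 12 h (865 barcodes), with exact 95% binomial intervals as bars. The interval for Fn1 ends at 50.3% at 6 h and starts at 91.3% at 12 h, while those for Mki67 and Pcna overlap.

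Genes of the TGF-β pathway did not all go one way. Of 19 measured receptors, feedback regulators and targets, 9 were at least 1.5-fold higher and 2 lower, with a median of 0.50. Junb, an AP-1 subunit that SMADs switch on, was at 34.6 CPM (21.2 to 53.5) against 129 CPM (119.8 to 139), 3.72-fold (2.39 to 6.13) higher. One barcode held 25% of its 20 counts at 6 h, and the ratio was 4.69-fold without each library's highest barcode. Skil, a SMAD corepressor, was 2.09-fold (1.52 to 2.94) higher but 3.77-fold with equal weight. Nox4, an oxidase that TGF-β switches on in fibroblasts, was at 19.1 against 63.8 CPM. Ctgf, connective tissue growth factor, was at 447 against 704 CPM, less than 2-fold apart. Smad7, the inhibitory SMAD, was at 88.3 against 88.8 CPM, and Tgfbr2, the type II receptor, at 24.2 against 26.1 CPM. Smad2 was on the lower side, at 55.4 against 32 CPM. The median of this list in the deepest tier was 0.32.

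Targets of YAP and TEAD, transcription regulators that respond to cell tension, were at least 1.5-fold higher for 5 of 15 measured members and lower for 0, and the median was 0.38. Fstl1, a secreted glycoprotein, led them at 388 CPM (339 to 442) against 1308 CPM (1278 to 1339), 3.37-fold (2.95 to 3.87) higher, counted in 32.5% (22.4 to 43.9) of 6 h barcodes and 71.6% (68.4 to 74.5) of 12 h barcodes. Dlc1 was 2.73-fold (1.83 to 4.25) higher, whereas Cyr61 and Ankrd1 were at 197 against 217 CPM and at 1166 against 1298 CPM. Wnt pathway genes had 5 of 10 members higher and 1 lower. Wisp1, a matricellular protein and Wnt target, was at 46.8 against 184 CPM, 3.93-fold (2.69 to 5.99) higher. Fzd2, a Wnt receptor, was 2.22-fold (1.65 to 3.06) higher, and Ctnnb1, β-catenin, was at 459 against 818 CPM. Wnt5a, a ligand, was at 74.5 against 46.7 CPM.

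Piezo2, a channel opened by stretch of the cell membrane, had the largest log2 ratio of the stable higher genes. It was at 36.4 CPM (22.5 to 55.6) against 345 CPM (330.1 to 361), 9.5-fold (6.19 to 15.4) higher, from 21 and 1922 counts. The ratio was 12.7-fold with equal weight and 7.02-fold without the 10 deepest 6 h barcodes, and the tiers from shallow to deep gave 33.4-, 3.79- and 10.9-fold. After thinning, Piezo2 was counted in 2.5% (0.304 to 8.74) of 6 h barcodes and 27.4% (24.4 to 30.5) of 12 h barcodes. The 6 h share came from 2 of 80 barcodes. In the shallowest, middle and deepest tiers at 12 h the share was 27.2%, 27.8% and 27.2%, nearly the same at each depth. At 24 h Piezo2 was at 489 CPM. Its relative Piezo1 was at 67.5 against 94.9 CPM, Pkd2 at 74.5 against 124 CPM, and Trpm7, a channel with a kinase domain, at 140.3 against 147 CPM. Of the 6 measured mechanosensitive channels, 3 passed 1.5-fold on the higher side and 1 on the lower.

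Among adhesion receptors, Itgb5, an integrin chain that pairs with αv and binds vitronectin, was at 113 against 380.3 CPM, 3.38-fold (2.64 to 4.39) higher, while Itgav was at 109 against 150.2 CPM and Itgb1 at 2068 against 1693 CPM. Itga6, a laminin receptor chain, was the 1 member of 13 at least 1.5-fold lower, at 43.3 against 12.9 CPM. Pdgfra and Pdgfrb, receptors for platelet-derived growth factor and mesenchymal markers, were at 31.2 against 30.7 CPM and at 13.9 against 40.6 CPM, under the 100 CPM limit. Vcam1, an adhesion molecule for leukocytes, was at 67.5 against 263 CPM, 3.9-fold (2.84 to 5.5) higher. Ccl7, a monocyte chemokine, was at 13.9 CPM (5.98 to 27.3) against 155 CPM (145 to 166), 11.2-fold (5.65 to 26) higher, from 8 counts at 6 h, and the tiers gave 5.55-, 13.9- and 12.7-fold. Ccl2, its close relative, was 3.02-fold (2.04 to 4.65) higher in summed CPM but 1.65-fold with equal weight. It was lower at 12 h in the shallowest tier, at a log2 ratio of -0.26, so its direction rested on the deeper barcodes. Cxcl12, which retains blood cells and guides migration, was at 755 against 1077 CPM, and Il6 at 15.6 against 55.9 CPM. Of 9 measured members of the chemokine list 5 were higher and 1, Ccl5, was lower.

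Genes linked to p53 and growth arrest were higher at 12 h, 11 of 17 by at least 1.5-fold and 0 lower, with a median of 0.89 and of 0.93 in the deepest tier. Gadd45a, which slows the cycle after stress, was at 43.3 CPM (28 to 63.9) against 293 CPM (279 to 307), 6.76-fold (4.56 to 10.5) higher. One barcode held 28.0% of its 25 counts at 6 h. Nupr1, a stress-induced chromatin protein, was at 286 CPM (244 to 333) against 1338 CPM (1308 to 1369), 4.68-fold (4.01 to 5.5) higher, and the measures lay close together for it, with 4.76-fold by equal weight, 4.67-fold without the 10 deepest 6 h barcodes and 4.29-, 4.87- and 4.76-fold in the tiers. It was counted in 22.5% (13.9 to 33.2) of 6 h barcodes and 68.6% (65.3 to 71.6) of 12 h barcodes. Cdkn1a, the p21 inhibitor of cyclin-dependent kinases, was at 556 against 805 CPM, less than 1.5-fold apart. Cdkn2b, the p15 inhibitor that TGF-β induces in many cells, was at 118 against 239.7 CPM, 2.04-fold (1.59 to 2.64) higher, and 1.89-fold with equal weight, so its call was not stable. Trp53inp1 was at 31.2 against 81.8 CPM, Phlda3 at 27.7 against 67.2 CPM, and Mdm2, which degrades p53, at 307 against 366 CPM.

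Genes of division were lower as a group. Of 50 listed G2 and M phase genes 42 were measured, and 41 were at least 1.5-fold lower and 0 higher, and 15 were stable lower calls. Their median log2 ratio was -1.45, -1.18 with equal weight, and -1.09, -1.44 and -1.59 in the tiers from shallow to deep. The list summed to 5276 against 1784 CPM, and to 793 CPM in the 24 h library. Mki67, which coats mitotic chromosomes, was at 267 CPM (226 to 312) against 57.3 CPM (51.2 to 64), 4.65-fold (3.81 to 5.66) lower, with 23.4% of its 6 h counts in 1 barcode and 2.84-fold by equal weight. Top2a, which untangles DNA before division, was at 291 against 77.6 CPM, 3.75-fold (3.12 to 4.49) lower. Kif20b, a kinesin of cell separation, was 5.61-fold (4.29 to 7.3) lower, and Prc1, which bundles microtubules between the separating chromosomes, 5.24-fold (3.99 to 6.85) lower. Hmgb2, a chromatin protein of cycling cells, was 5.26-fold (4.06 to 6.78) lower. Prc1 and Hmgb2 had 34.5% and 30.2% of their 6 h counts in 1 barcode. Hmmr was at 272 against 70.3 CPM, Cenpf, a centromere protein, at 220.0 against 60.0 CPM, and Cdk1, the kinase of mitotic entry, at 106 against 28.9 CPM. Bub3, of the spindle checkpoint, was the member short of 1.5-fold, at 104 against 76 CPM.

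The G2 and M list gave a median of 1 count per thinned barcode at both times. No count from it was held by 33.8% of 6 h and 45.8% of 12 h barcodes. After thinning to 1000 counts, 30.0% (20.3 to 41.3) of 6 h barcodes and 9.71% (7.82 to 11.9) of 12 h barcodes held at least 5 counts from the G2 and M list. The shares were 27.7% (15.6 to 42.6) and 10.6% (7.81 to 14.0) in the shallowest tier, 45.5% (16.7 to 76.6) and 9.96% (6.72 to 14.1) in the middle tier, from 5 of 11 barcodes at 6 h, and 27.3% (10.7 to 50.2) and 7.10% (3.72 to 12.1) in the deepest. The 6 h share was higher in each tier, and the intervals of the deepest tier overlapped. At 24 h it was 0.857% (0.371 to 1.68) over all deep barcodes. No phase was assigned to a barcode. S phase genes had 15 of 22 members lower and 0 higher, with a median of -0.83 and of -0.51 with equal weight. The tiers from shallow to deep gave -0.33, -0.52 and -0.93. Pcna, the replication clamp, was at 208 against 91.1 CPM, 2.28-fold (1.85 to 2.79) lower, and Rrm1, of nucleotide synthesis, was 2.61-fold (1.99 to 3.38) lower. At least 5 counts of the S phase list were held by 5% (1.38 to 12.3) of 6 h and 1.04% (0.477 to 1.97) of 12 h barcodes. These shares came from 4 and 9 barcodes, and their intervals overlapped. The share without any S phase count was 52.5% at 6 h and 52.6% at 12 h. Tyms, thymidylate synthase, was at 114 against 80.9 CPM. Hist1h1e, a linker histone, was 10.5-fold (7.16 to 15.5) lower, but 81.1% of the 51-base stretches near its 3′ end also occurred in other genes.

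Promoters of the measured G2 and M genes were searched for motifs, whatever the ratio of the gene. The shares therefore describe the list and not the difference between 6 h and 12 h. The window ran from 250 bases before to 50 bases after the start of each gene in RefSeq on build GRCm38.p6, and motifs were sought on both strands. TTTGAA, the cell cycle homology region bound by repressor complexes of resting cells, occurred in 30 of 39 G2 and M promoters (76.9%), against 18.1% of 27025 promoters and 11.1% of those of measured genes. CCAAT, the site of NF-Y, occurred in 31 of 39 (79.5%), against 37.9% and 38.7%. It also occurred in 9 of 14 promoters of the ATF4 list below (64.3%), 4 of 15 of the NRF2 list and 2 of 4 of fibrillar collagens. The Kif20b promoter is printed because it holds the TTTGAA motif and belongs to the stable division gene with the largest ratio that does. It lies at chr19:34922108-34922407 on the plus strand, and the capitals mark a pair of TTTGAA matches in a row just after the start. The sequence, like those below, is written along the strand of its gene. A match describes the letters and not a bound site.
Kif20b: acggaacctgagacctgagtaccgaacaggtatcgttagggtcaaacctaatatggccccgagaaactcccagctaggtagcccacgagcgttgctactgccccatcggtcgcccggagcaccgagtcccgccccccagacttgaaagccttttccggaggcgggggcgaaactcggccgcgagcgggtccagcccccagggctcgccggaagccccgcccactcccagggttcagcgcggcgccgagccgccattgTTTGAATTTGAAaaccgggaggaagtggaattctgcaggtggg

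Antioxidant genes controlled by NRF2 were lower in part, 8 of 20 by at least 1.5-fold and 0 higher, with a median of -0.45 and of -0.48 in the deepest tier. Gclm, a subunit of the enzyme that starts glutathione synthesis, was at 267 CPM (226 to 312) against 56.4 CPM (50.4 to 63), 4.73-fold (3.87 to 5.75) lower. It had 22.1% of its 6 h counts in 1 barcode, and the tiers gave 1.94-, 5.56- and 5.05-fold, the smallest in the shallowest. Abcc1, a glutathione conjugate exporter, was 2.4-fold (1.96 to 2.93) lower, and Txnrd1, thioredoxin reductase, was at 707 against 371 CPM. After thinning, Txnrd1 was counted in 57.4% of 6 h and 29.2% of 12 h barcodes in the shallowest tier. Its shares were 27.3% and 32.4% in the middle tier and 31.8% and 34.3% in the deepest, with overlapping intervals in both. Gclc, the catalytic partner of Gclm, was at 67.5 against 45.8 CPM, Nqo1 at 65.8 against 40.8 CPM, and Prdx1 at 592 against 659.5 CPM. The core of the antioxidant response element, TGACNNNGC, occurred in 5 of 15 promoters of the list (33.3%), against 12.5% of all promoters and 15.3% of those of measured genes. It was not particular to this list, with 4 of 14 promoters of the ATF4 list below (28.6%) and 9 of 39 G2 and M promoters (23.1%). No fibrillar collagen promoter of 4 held it. The element can overlap the AP-1 motif TGACTCA, which occurred in 3 of the 15, against 5.17% of all promoters. TGACTCA also occurred in 2 of 14 ATF4 promoters (14.3%) and in 0 of 39 G2 and M promoters. TGACTCA occurred in 0 of 4 fibrillar collagen promoters in the table, which says only that these letters are not in those windows. The Gclm promoter is printed for its element, which stands in capitals on the opposite strand, 134 bases before the start. It lies at chr3:122245307-122245606 on the plus strand.
Gclm: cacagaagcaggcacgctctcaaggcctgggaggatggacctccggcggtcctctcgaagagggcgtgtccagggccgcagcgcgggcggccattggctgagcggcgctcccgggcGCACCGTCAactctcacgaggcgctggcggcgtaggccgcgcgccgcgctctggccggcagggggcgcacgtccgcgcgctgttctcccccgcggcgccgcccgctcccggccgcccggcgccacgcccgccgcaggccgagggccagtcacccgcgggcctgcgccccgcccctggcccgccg

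The ATF4 list, of serine synthesis and amino acid stress, was split. Of 14 measured members 8 were at least 1.5-fold lower and 2 higher, with a median of -0.65. The tiers from shallow to deep gave -0.28, -0.07 and -0.43, each nearer 0 than the median of all deep barcodes. The serine enzymes were on the lower side. Psph, which catalyses the last step, was at 125 against 31.4 CPM, 3.97-fold (2.97 to 5.25) lower, though 2.32-fold with equal weight. Its exons overlap Cct6a on the opposite strand, and which strand was counted is unknown here. Phgdh, the first enzyme, was 2.93-fold (2.19 to 3.88) lower, but its log2 ratio was 0.44 in the middle tier, and 41.2% of its 3′ stretches of 51 bases occurred in other genes. Psat1, the enzyme between them, was at 76.2 against 28.4 CPM. Nars, which charges the asparagine tRNA, was at 767 against 319.9 CPM, 2.4-fold (2.16 to 2.66) lower, and with Iars, at 91.8 against 57.5 CPM, was 1 of 2 at least 1.5-fold lower among 20 aminoacyl-tRNA synthetases, of which 14 had a ratio under 1. Atf4 itself was at 111 against 111 CPM. The 2 higher members were Nupr1, given above, and Ddit4, an inhibitor of mTORC1, at 34.6 against 94 CPM. TGATGCAA, a composite site of ATF4 and a C/EBP factor, occurred in 1 of 14 promoters of the list, that of Nupr1, against 0.929% of all promoters. That promoter is printed because Nupr1 was a stable call and the only member of its list that holds the motif. Nupr1 went against most of its list. The motif stands in capitals on the opposite strand, 110 bases before the start, and the promoter lies at chr7:126625421-126625720 on the minus strand.
Nupr1: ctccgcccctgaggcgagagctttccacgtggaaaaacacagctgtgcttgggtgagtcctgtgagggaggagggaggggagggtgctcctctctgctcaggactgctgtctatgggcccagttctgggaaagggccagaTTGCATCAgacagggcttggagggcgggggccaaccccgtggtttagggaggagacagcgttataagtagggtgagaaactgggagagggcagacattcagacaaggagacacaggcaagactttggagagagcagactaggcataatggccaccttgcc

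Acta2, the smooth muscle actin used as the mark of myofibroblasts, was lower at 12 h than at 6 h. It was at 658 CPM (594 to 728) against 112 CPM (103 to 121), 5.9-fold (5.18 to 6.71) lower, and at 407 CPM at 24 h. The ratio was 6.21-fold with equal weight and 4.67-fold without the 10 deepest 6 h barcodes, and the tiers gave 9.35-, 4.89- and 4.8-fold. One barcode held 21.3% of its 380 counts at 6 h. After thinning, Acta2 was counted in 33.8% (23.6 to 45.2) of 6 h barcodes and 7.28% (5.64 to 9.22) of 12 h barcodes, and at 24 h in 20.9%. Both the level and the share of barcodes were lowest at 12 h among the 3 TGF-β libraries. Tagln, another smooth muscle protein, had 6 counts at 6 h and 17 at 12 h, or 10.4 against 3.06 CPM, and its ratio was 3.4-fold (1.1 to 9.04) lower. Postn, periostin, had 0 and 5 counts, a difference not detectable at this depth.

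In the contractile list as a whole, 6 of 21 measured members exceeded 1.5-fold on the higher side and 2 on the lower. Its median was 0.13, and that of all genes 0.12. Myl6, the essential light chain of nonmuscle myosin, was the other lower member, at 1564 CPM (1464 to 1669.5) against 568 CPM (548 to 588), 2.76-fold (2.56 to 2.97) lower, and was at 1192 CPM at 24 h. It was counted in 81.2% (71 to 89.1) of 6 h barcodes and 42.3% (39 to 45.7) of 12 h barcodes. Of its 3′ stretches of 51 bases, 15.0% occurred in other genes. Actn1, α-actinin, was at 298 against 760.0 CPM, 2.55-fold (2.19 to 2.99) higher, and Myh9, the nonmuscle myosin heavy chain, at 404 against 904 CPM. Pdlim7, an actin-bound scaffold, was 2.68-fold (1.86 to 3.99) higher. Tpm1, a tropomyosin, was at 1564 against 1615 CPM, and Cald1, caldesmon, at 3263 against 3450.5 CPM. Xirp2, an actin-binding protein of striated muscle, had one of the larger ratios of the stable lower genes, at 163 against 8.27 CPM, 19.7-fold (13.7 to 28.7) lower, and was at 1.83 CPM at 24 h. After thinning, Xirp2 was counted in only 10% (4.42 to 18.8) of 6 h barcodes and 0.694% (0.255 to 1.5) of 12 h barcodes. The 6 h share came from 7 of 47 barcodes in the shallowest tier, 0 of 11 in the middle and 1 of 22 in the deepest.

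Lysosome genes were higher in part, 12 of 22 by at least 1.5-fold and 0 lower, with a median of 0.54 and of 0.57 in the deepest tier. Cd63, a tetraspanin of late endosomes, was at 785 against 1661 CPM, 2.12-fold (1.93 to 2.33) higher, and was the 1 stable call of the list. Npc2, which carries cholesterol out of lysosomes, was at 1524 against 2981 CPM, Ctsb, a cathepsin, at 345 against 663 CPM, and Laptm4a at 322 against 636 CPM, each just under 2-fold. Cholesterol synthesis and uptake had 6 of 15 members higher and 0 lower. Hmgcs1, at the start of the pathway, was at 38.1 against 80.5 CPM and Sc4mol, a sterol oxidase, at 43.3 against 89.9 CPM. Glycolysis had 3 of 14 higher and 4 lower, and its median of -0.27 became 0.05 without the 10 deepest 6 h barcodes. Pgk1 was 2.56-fold (2.06 to 3.17) lower, Eno1 at 424 against 225 CPM, and Gapdh at 459 against 283 CPM, all genes with many copies of their 3′ sequence elsewhere, at 41.7%, 38.6% and 39.7% of 51-base stretches. Of 68 nuclear genes of oxidative phosphorylation, 5 were higher and 5 lower, with a median of 0.05. The proteasome had 2 of 31 higher and 2 lower, and cytosolic chaperones 2 of 17 and 3. In the basement membrane list 2 of 6 were higher and 1, Nid1, which links laminin to collagen IV, was lower, at 681 against 398 CPM. By equal weight 4 of the 6 were higher and 0 lower, where 30.7% of all measured genes were higher and 11.1% lower. After thinning, Nid1 was counted in 35% (24.7 to 46.5) of 6 h and 32.9% (29.8 to 36.2) of 12 h barcodes. Of 9 mitochondrial genome genes, mt-Cytb and mt-Nd4 were at 1375 against 2309 CPM and at 705 against 1377 CPM, while the ribosomal RNA mt-Rnr2 was 2.08-fold (2.04 to 2.11) lower, not a stable call.

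The immediate early genes, the first to respond to a stimulus, differed between weightings. Their median was -0.13 in summed CPM and 0.56 with equal weight, with 4 of 13 higher and 2 lower by summed CPM. By equal weight 8 were higher and 3 lower, where 30.7% of all measured genes were higher and 11.1% lower. Klf4, a transcription factor of this list, was 2.8-fold (1.88 to 4.36) higher. After thinning, Klf4 was counted in 6.25% (2.06 to 14.0) of 6 h and 12.6% (10.5 to 15.0) of 12 h barcodes, with overlapping intervals. In the deepest tier its shares were 13.6%, from 3 of 22 barcodes, and 7.69%. Klf6 was at 256 against 234 CPM in sums but 152 and 230.1 CPM as means over barcodes. The long RNAs Meg3 and Neat1 were 3.02-fold (2.67 to 3.43) higher and 2.94-fold (2.4 to 3.66) higher, and Meg3 was counted in 22.5% (13.9 to 33.2) of 6 h barcodes and 64.6% (61.3 to 67.8) of 12 h barcodes. Growth factors had 6 of 17 higher and 4 lower. Igf1 was at 140.3 against 309.8 CPM and Vegfa, an angiogenic factor, at 72.7 against 166 CPM, neither of them stable. Prl2c2, a proliferin of growing cells, was lower at 3100.4 against 1437 CPM, but not stably, and was at 514 CPM at 24 h. Of its 3′ stretches, 83.2% occurred in other genes. Anxa8, an annexin, was 5.14-fold (3.49 to 7.9) higher, and Lgals3, galectin-3, was 3.3-fold (2.68 to 4.03) lower. Their list of 17 had 3 members higher and 3 lower.

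**Figure D4:**
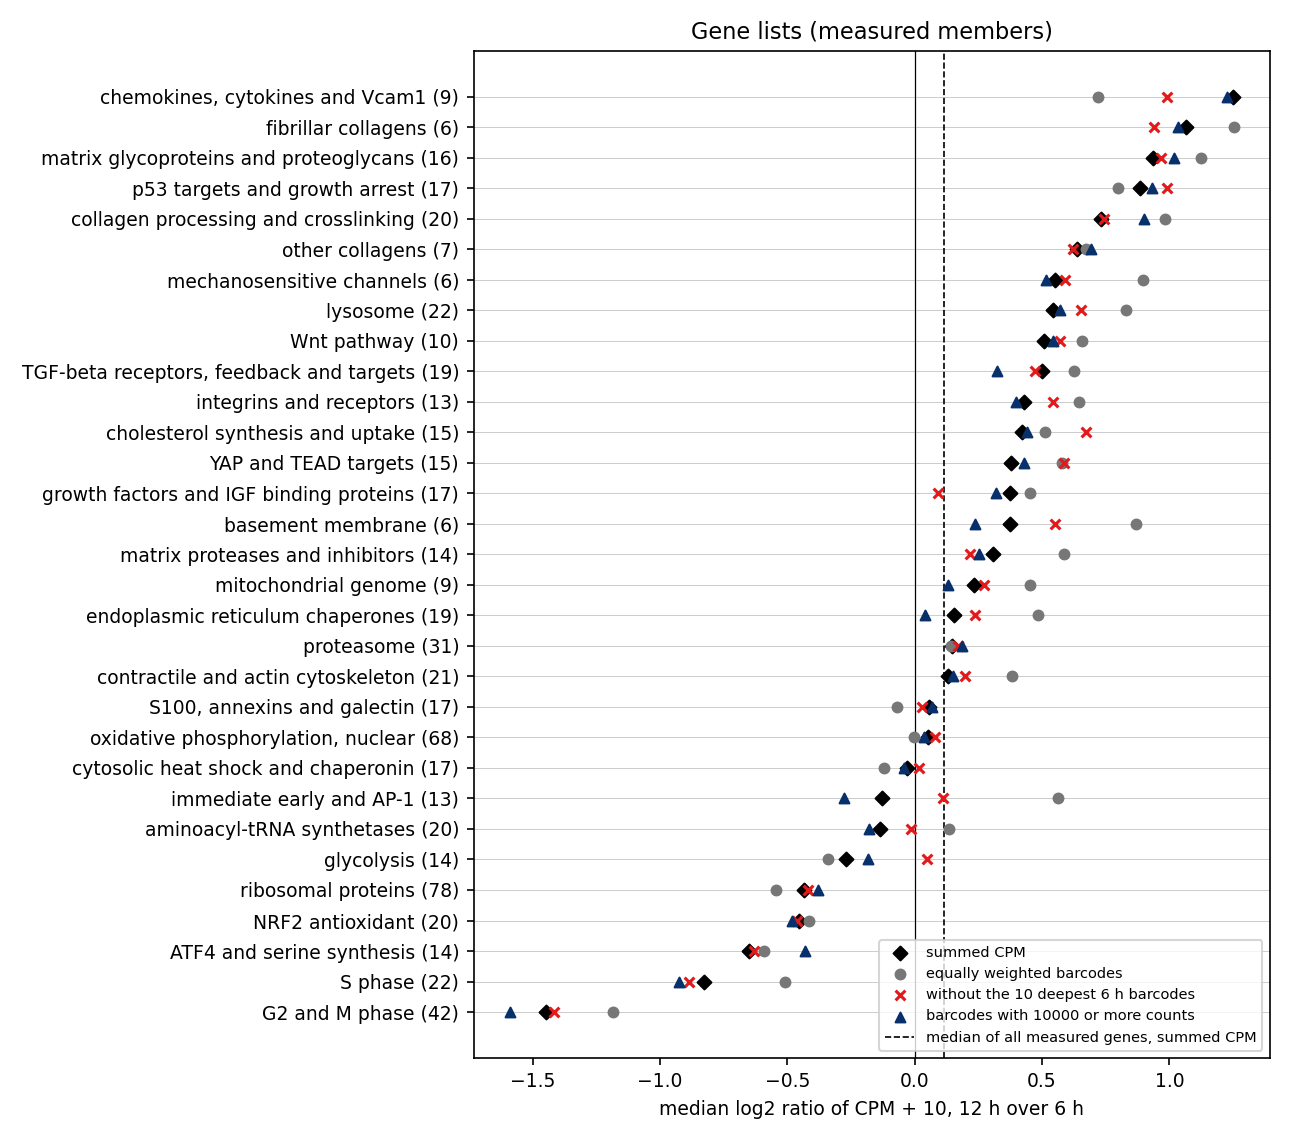
The x axis is the median log2 ratio of CPM plus 10 (12 h over 6 h) over the measured members of each list, whose number stands in parentheses. Diamonds are summed CPM, circles equally weighted barcodes, crosses sums without the 10 deepest 6 h barcodes, and triangles barcodes with 10000 or more counts. The G2 and M phase list lies farthest left under each measure, and the dashed line marks the median of all measured genes at 0.12.

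Ribosomal protein genes were lower at 12 h as a group, 30 of 78 by at least 1.5-fold and 0 higher, with a median of -0.43 and of -0.38 in the deepest tier. They took 14.5% of counts at 6 h, 11.1% at 12 h and 15.5% at 24 h. Rpl35a was at 759 against 222 CPM, 3.42-fold (3.06 to 3.81) lower, and at 661 CPM at 24 h. Rpl35 was at 1521, 545 and 1565 CPM at 6, 12 and 24 h, and Rps25 at 2193, 949.9 and 1993 CPM. The genes of this list were not uniform, since Rpl4 was at 2579 against 3508 CPM and Rpl3 at 1810 against 2298 CPM. A row spelled RPL24, separate from Rpl24, was at 196, 3.23 and 186 CPM. What that row counts is unknown here.

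Several of the lowest genes at 12 h had higher levels again at 24 h, some near those of 6 h. Sec61g, a subunit of the channel that passes proteins into the endoplasmic reticulum, was at 381 CPM (332 to 435) against 26.2 CPM (22.2 to 30.9) and then 439 CPM in the 24 h library. Its channel partner Sec61b was at 388, 279 and 406 CPM. Atp5l, a subunit of ATP synthase, was at 349.9, 32.5 and 396 CPM, whereas the other ATP synthase subunits Atp5b and Atp5h were at 599 against 768 CPM and at 606 against 528 CPM. Morf4l1, a chromatin protein, was at 772, 178 and 637 CPM, Eif3j1, of translation initiation, at 236, 52.1 and 143 CPM, and Lrrc58 at 357, 91.8 and 246 CPM. Eif3j1 and Lrrc58 thus stayed under their 6 h level at 24 h. Sec61g was counted in 35% (24.7 to 46.5) of 6 h barcodes and 2.43% (1.51 to 3.69) of 12 h barcodes, and the ratio was 12.5-, 12.1- and 15.9-fold in the tiers, nearly the same at each depth. By contrast Mki67, at 7.64 CPM, and Xirp2 were lower still at 24 h than at 12 h.

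Sequence shared with other genes was more common among the lower genes. The last 600 bases of each gene's transcripts in GENCODE M21 were cut into 51-base stretches, and those that also occurred in another gene were counted. At least 10% of stretches were shared for 34 of 71 stable lower genes with a transcript (47.9%), for 1 of 76 stable higher genes (1.32%) and for 14.3% of 2186 tested genes. Sec61g had 18.5% of stretches shared, Atp5l 24.9%, Morf4l1 21.9% and Rpl35 42.4%. Among other lower genes named above, Pcna had 19.6%, Rps25 15.5%, Rpl35a 14.1%, Eif3j1 10.3% and Sec61b 17.2%, and among the higher ones Cd63 had 27.4%. The stable lower genes also held 8 predicted genes, such as Gm10132 at 116 against 8.27 CPM, and 8 ribosomal protein genes, while the stable higher genes held 0 of either kind. Reads of such genes can be assigned to more than 1 gene, and how the authors counted them is unknown here. Whether the 6, 12 and 24 h libraries were counted with the same settings is also unknown, so a difference in counting between libraries cannot be told apart from time for these genes. The part of shared sequence in the lower values was not tested, and these genes are reported as uncertain. Of the 139 genes named by rule, whose overlaps were looked up, several of the higher ones had exons that overlap those of a gene on the opposite strand, among them Fn1, Timp3, Ltbp2, Ltbp3, Col5a1, Loxl2, Pcolce, Actn1, Junb, Gadd45a, Vcam1, Prss23, Ctsb, Ctnnb1, Itgav and Meg3. The same held for Xirp2, Atp5l, Gclm, Morf4l1, Prc1, Eif3j1, Nid1, Gapdh, Rpl35, Rps25, Tagln, Malat1, Pdgfra, Col4a1 and Ap3s2. Without a known strand setting the reads of such pairs cannot be told apart. Among the division genes named, Kif20b and Prc1 had under 10% of stretches shared, and Hmgb2 had 19.5%.

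Some values depended on 1 barcode or on which barcodes were included. Oip5, of centromere assembly, had 899 counts at 6 h, of which 99.6% lay in 1 barcode, and 5 counts at 12 h. It met the rule for a stable call, and it was counted in 2.5% of thinned 6 h barcodes and 0.116% of 12 h barcodes. Its exons overlap those of Nusap1 on the opposite strand. Without its highest barcode in each library the ratio was 9.64-fold from few counts, and in the middle tier the log2 ratio was 0.20, so its summed level describes 1 barcode. Ap3s2, of vesicle transport, was at 6.93 against 21.2 CPM in deep barcodes, 3.06-fold (1.16 to 11.4) higher, but was at 1018 and 20.9 CPM with all deposited barcodes. Leaving out the 10 deepest 6 h barcodes took Timp3 to 2.38-fold, Acta2 to 4.67-fold, Psph to 2.95-fold and Amd1, of polyamine synthesis, from 2.57-fold to 1.75-fold lower. It took Plk2, a stress-induced kinase, from 2.07-fold to 3.16-fold and Junb to 4.46-fold higher. Of all calls, 53 higher and 48 lower genes were 2-fold the same way in each of the 3 tiers.

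**Figure D5:**
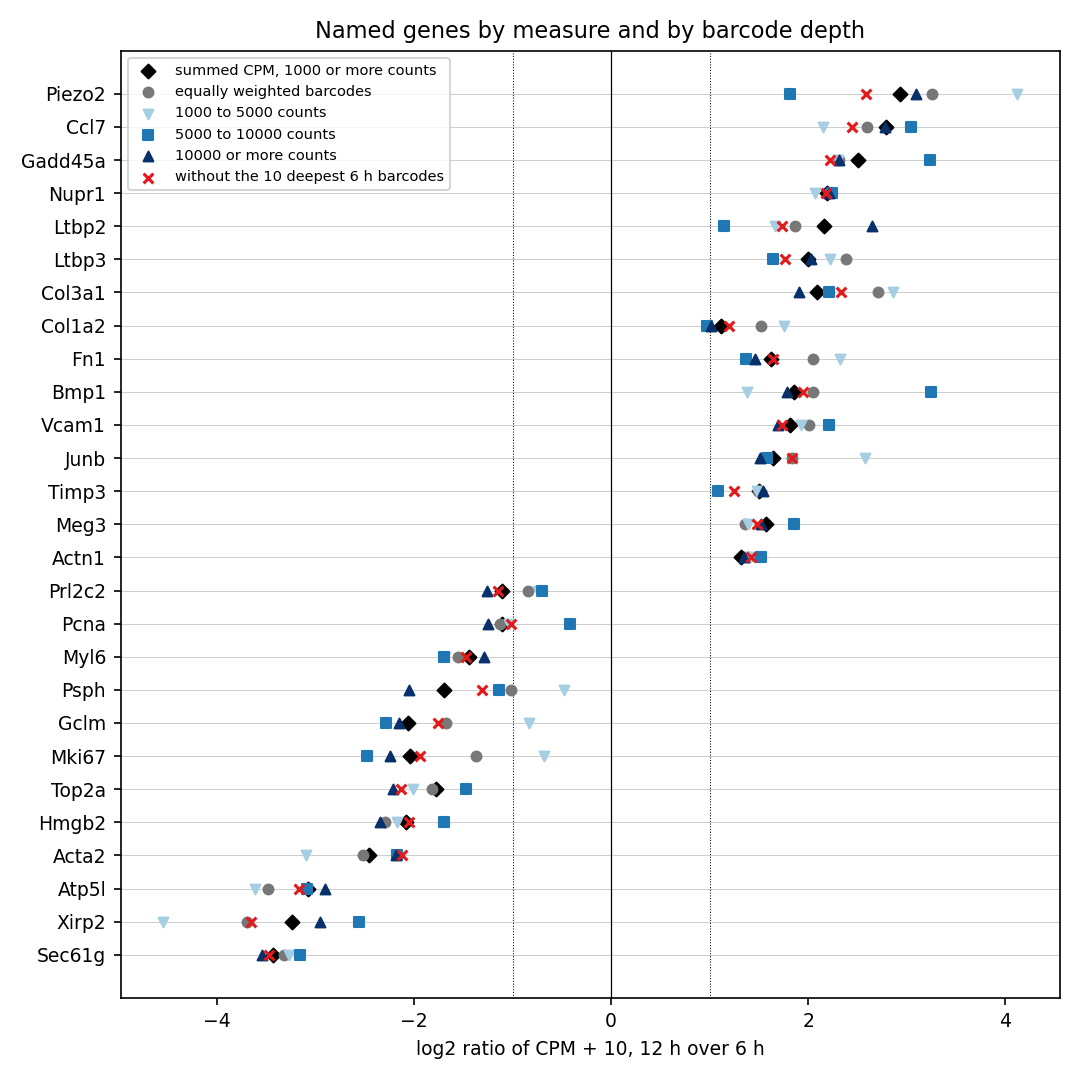
The x axis is the log2 ratio of CPM plus 10 (12 h over 6 h) for named genes, with dotted lines at 2-fold. Symbols give summed CPM, equally weighted barcodes, the 3 depth tiers and sums without the 10 deepest 6 h barcodes. The symbols for Nupr1 and Sec61g lie close together, while those for Piezo2, Mki67 and Gclm spread widely, and every symbol of the genes drawn lies on the same side of 0 as the summed value.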

How the data were processed

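Single cells were profiled by Drop-seq, 1 library per time. The authors deposited 1 table of whole-number counts per gene and barcode (17391 genes), not normalized. Whether molecular identifiers were collapsed is not stated. The submitters' processing notes name STAR 2.5.3a and mm10. Counter, annotation and strand remain not given in the sources used here, and in the table every barcode has 200 or more genes and less than 5% of its counts from mitochondria.

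Barcodes with 1000 or more counts were summed and scaled to CPM. Log2 ratios used a pseudocount of 10 CPM, which understates differences of low genes. Ratios have exact conditional binomial intervals, CPM exact Poisson and shares exact binomial ones. A gene was tested if it reached 100 CPM at one of the times, and list members were measured at a mean of 20 CPM. Barcodes were thinned without replacement (seed 1). Named genes were the 15 highest and 15 lowest stable log2 ratios (predicted, unnamed, ribosomal protein and mitochondrial genes left out), up to 4 members per list at 100 CPM or more, the 10 unstable calls that moved most under each of 2 leave-outs, and fixed genes, of which some are not reported here. Other members are given as examples of their lists and were chosen after their values were seen. The members and lists were chosen with earlier results of these data known. Scrublet called 3 of 80 and 24 of 865 deep barcodes doublets, which were kept. Barcodes 1 base from another of their library numbered 8 and 121. The summed and equally weighted calls were tested on simulated data in which all barcodes of a library shared the same profile. That simulation therefore does not cover uneven expression among cells, and the rule for stable calls was not simulated. Software was scanpy 1.11.5 with scipy 1.17.1 and numpy 2.4.6 in Python 3.11.15, pandas 2.3.3, matplotlib 3.10.9, scikit-image 0.26.0, R 4.3.3, edgeR 4.0.16 (TMM) and DESeq2 1.42.0 (size factors), the last 2 for scaling alone.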

Additional observations from a re-analysis of the deposited data

How the results depend on the processing

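No paired analysis was possible because each time had 1 library. The counts of genes, 111 higher and 93 lower, moved by over 1.5 times as follows. Equal weight per barcode gave 194 higher, and sums of barcodes thinned to 1000 counts 301 higher and 177 lower. Leaving out the 20 deepest 6 h barcodes gave 179 higher. Barcodes with 1000 to 5000 counts gave 297 and 155, and those with 5000 to 10000, with 11 barcodes at 6 h, 257 and 185. A floor of 50 CPM gave 270 and 173, one of 200 CPM 43 and 48, no floor 1392 and 1618, and a 1.5-fold limit 369 and 245. The cause was not tested for the choices of barcodes. The other alternatives run kept both counts within 1.5 times, among them leaving out the 10 deepest 6 h barcodes (132 and 98), barcodes with 10000 or more counts (132 and 99), leaving out doublets (119 and 92) and barcodes 1 base apart (112 and 96). The 155 stable calls numbered 151 after thinning to 500 counts. Of 702 list medians under 22 settings, 693 stayed within the spread of their list, 9 moved and 0 changed sign beyond it, but small medians took the other sign, in 8 settings for immediate early genes and for S100, annexins and galectin, 6 for cytosolic chaperones, 5 for aminoacyl-tRNA synthetases and for oxidative phosphorylation and 4 for glycolysis. Of 2911 values of named genes, 7 took the other sign for a gene called 2-fold. Genes that were not called are left out of that number, though Ap3s2 (-5.06 with all deposited barcodes) and Klf6 (0.57 with equal weight) also took the other sign. In the 5000 to 10000 tier the log2 ratio was 0.20 for Oip5, -0.15 for Hspg2, 0.44 for Phgdh, -0.15 for Vegfa and -0.14 for Celf2, and in the 1000 to 5000 tier -0.26 for Ccl2 and 0.43 for Tmem97. The tiers from 5000 to 10000 and from 10000 up, and the setting without barcodes ending in N (121 and 97), were added after seeing the data. At 6 h, 1 count is 1.73 CPM, which limits the low genes.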
